A study of Mus musculus with 12 samples.

Results

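The genes described here encode 10 glycosyltransferases of families that build or decorate glycan chains, among them those on which the sialyltransferase St3gal3 acts: the galactosyltransferases B4galt1, B4galt3, B4galt4, B4galt5 and B4galt6, the N-acetylglucosaminyltransferase B3gnt2, and the fucosyltransferases Fut4, Fut8, Fut10 and Fut11. They were chosen by gene name, and each was found as 1 row in all 12 libraries, among 56061 genes listed for cultured cells and 55878 listed for tumors. HM1, the line behind all libraries, was derived from a mouse ovarian cancer. The libraries fall into 4 groups of 3: tumors of the ST3GAL3 knockdown line (shST3GAL3), tumors of the control line (shControl, genotype given as wild type), cultured shST3GAL3 cells and cultured shControl cells. All groups carry a short hairpin RNA. The mouse strain, age and injection site, the number of hairpins or clones, and whether the 3 libraries of a group came from separate animals or cultures are not given in the sources used here, so the spread behind each p-value is that between libraries and may be technical. The series title places the comparison in tumor immunity and resistance to immunotherapy.

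Sialic acid is added to the end of a glycan, mostly onto galactose. B4galt enzymes are among those that put the galactose there. They join it to N-acetylglucosamine and so form N-acetyllactosamine, an acceptor of St3gal3. B3gnt enzymes add a further N-acetylglucosamine to galactose, and in turn with B4galt enzymes they lengthen the chain into polylactosamine. Fucosyltransferases add fucose to the same chains: some next to the sialylated galactose, giving Lewis antigens and selectin ligands, and Fut8 at the base of N-glycans.

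The promoters of B4galt1, B4galt3 and Fut4 are shown because these genes cover the range of behaviour described below: B4galt1 had the smallest p of those tested in the tumor comparison, B4galt3 was at much the same level in every group, and Fut4 was below 1 TPM in culture and near 5 TPM in tumors. Each runs 5′ to 3′ from 250 bases before to 50 bases after the start of the gene, from RefSeq on GRCm38.p6, which is not the build named for these files (GRCm39). Capitals mark matches to the GC box GGGCGG on either strand, the letters bound by Sp-family factors. B4galt1 lies on the minus strand at chr4:40853935-40854234, B4galt3 on the plus strand at chr1:171270078-171270377 and Fut4 on the minus strand at chr9:14752073-14752372.
B4galt1: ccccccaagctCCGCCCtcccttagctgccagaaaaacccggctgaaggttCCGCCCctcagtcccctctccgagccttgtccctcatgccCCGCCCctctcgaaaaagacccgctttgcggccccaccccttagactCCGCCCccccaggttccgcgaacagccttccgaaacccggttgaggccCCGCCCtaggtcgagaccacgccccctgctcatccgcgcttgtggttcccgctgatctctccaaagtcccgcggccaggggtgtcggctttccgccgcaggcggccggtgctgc
B4galt3: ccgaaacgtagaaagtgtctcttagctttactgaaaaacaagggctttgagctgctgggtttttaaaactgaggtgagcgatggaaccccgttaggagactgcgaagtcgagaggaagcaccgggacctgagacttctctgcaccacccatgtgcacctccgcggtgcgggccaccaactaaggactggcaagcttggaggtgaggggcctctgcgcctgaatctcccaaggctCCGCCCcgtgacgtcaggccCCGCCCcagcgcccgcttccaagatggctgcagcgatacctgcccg
Fut4: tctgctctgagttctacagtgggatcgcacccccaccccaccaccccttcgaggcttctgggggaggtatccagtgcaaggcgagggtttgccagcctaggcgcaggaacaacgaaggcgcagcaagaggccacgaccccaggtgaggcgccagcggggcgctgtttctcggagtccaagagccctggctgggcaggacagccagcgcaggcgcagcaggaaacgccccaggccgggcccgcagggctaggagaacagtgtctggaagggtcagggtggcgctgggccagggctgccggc
The GC box was found 5 times in the B4galt1 window, 2 times in that of B4galt3 and 0 times in that of Fut4, and in 35.7% of 32851 promoters of the same length. Promoter windows were counted for 8 of the 10 genes (none for B4galt6 and Fut10), with several starts for Fut8. Of the 8, 7 had a GC box in some window, with 7 matches for B4galt5 and 5 for B3gnt2. This count is per gene, while the 35.7% is per window. The windows of B4galt1, B4galt3 and Fut4 were 68.3, 59.7 and 68.0% G or C, beside a median of 52.7% over all promoters. The letters TTCNNNGAA, the core of sites bound by STAT factors, were found in the window of B4galt1 (first base 152) and of no other member counted, and in 8.30% of all promoters. They did not overlap a GC box. A match is a description of these letters and not a measured binding site, and no match says only that the letters are not in this window.

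Levels are given in TPM, in which the authors scaled each gene by its length and each library to a common sum. TPM keeps no depth, so no counting interval is given. Between 14046 and 14534 genes reached 1 TPM in a tumor library, and between 12629 and 13145 in a culture library. St3gal3, the target of the hairpin, was at 7.28, 5.87 and 5.76 TPM in knockdown tumors against 14.00, 15.39 and 15.36 TPM in control tumors, and at 1.52, 1.25 and 1.83 TPM in knockdown cells against 9.59, 12.52 and 12.93 TPM in control cells, so the labels held in every library. The tumors contain host cells. Of 12 leukocyte markers, 11 averaged at least 1 TPM in tumors of either line and 0 did in cultured cells, with Cd3e, Cd4, Adgre1 and Ncr1 among those listed at 0 in all 6 culture libraries. Their summed level was 218 to 286 TPM in knockdown tumors and 188 to 229 TPM in control tumors, against 0.38 to 0.77 TPM in knockdown cells and 0.35 to 1.55 TPM in control cells. Within this list Ly6c2, a monocyte marker named here after its values were seen, was called higher, at 36.8 TPM in knockdown and 9.49 TPM in control tumors (limma adjusted p = 0.0139), and it was the only one of the 11 tested that was called. Of the 10 interferon-stimulated genes, 8 were called higher in knockdown tumors by limma, and their sum was 439 to 559 TPM in knockdown tumors and 131 to 200 TPM in control tumors. The 8 fibroblast markers summed to 737 to 1129 TPM in knockdown tumors and 1123 to 1518 TPM in control tumors, the 6 endothelial markers to 39.7 to 58.6 TPM in knockdown tumors and 57.7 to 84.4 TPM in control tumors, and the 5 erythroid markers to 37.7 to 88.0 TPM in knockdown tumors and 79.0 to 107 TPM in control tumors, with overlap for each. The 10 epithelial and ovarian tumor markers, of which 6 averaged at least 1 TPM in tumors and 4 in culture and Muc16 was listed at 0 in all 6 tumors, summed to 2565 to 2831 TPM in knockdown tumors and 3231 to 3437 TPM in control tumors. Skeletal muscle markers, 8 genes, summed to 86.7, 12.4 and 64.4 TPM in knockdown tumors 1, 2 and 3, against 2.57, 13.9 and 2.78 TPM in control tumors, 2.53 to 4.84 TPM in knockdown cells and 2.71 to 3.93 TPM in control cells. In bulk tissue, fewer cells of a type and less RNA per cell cannot be told apart.

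B4galt1, the main galactosyltransferase of N-glycans and the catalytic part of lactose synthase, was at 52.58, 55.62 and 67.57 TPM in knockdown tumors, against 72.56, 68.72 and 80.56 TPM in control tumors. Every knockdown tumor was below every control tumor, and knockdown tumor 3 came closest to control tumor 2. In culture the groups overlapped, with 23.21, 21.06 and 18.50 TPM in knockdown cells against 19.75, 22.56 and 22.46 TPM in control cells. B4galt3, which also acts on N-glycans, was at 42.55, 40.59 and 46.14 TPM in knockdown tumors and 37.22, 42.23 and 46.49 TPM in control tumors. It was at 39.27, 38.59 and 35.94 TPM in knockdown cells and 31.76, 36.33 and 35.72 TPM in control cells. Its groups overlapped in both settings, and its means over the 4 groups lay between 34.6 and 43.1 TPM.

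B4galt5 and B4galt6 encode the lactosylceramide synthases, which start most complex glycolipids. B4galt5 was at 34.02, 31.17 and 34.97 TPM in knockdown tumors against 25.15, 29.62 and 33.34 TPM in control tumors, and at 25.92, 23.66 and 21.56 TPM in knockdown cells against 22.59, 29.89 and 26.74 TPM in control cells. The groups overlapped in tumors and in culture. B4galt6 was far lower: it was at 2.22, 1.85 and 2.21 TPM in knockdown tumors and 2.11, 1.95 and 1.91 TPM in control tumors, and at most 0.12 TPM in any culture library. B4galt4, known for galactosylating sulfated N-acetylglucosamine in keratan sulfate, was at 1.35, 1.04 and 1.37 TPM in knockdown tumors and 1.26, 1.63 and 2.04 TPM in control tumors, and at most 0.35 TPM in culture. Both genes were thus detectable mainly in tumors, with overlapping groups there.

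B3gnt2, the main enzyme of polylactosamine extension, was at 40.32, 42.49 and 54.15 TPM in knockdown tumors and 44.47, 36.31 and 44.39 TPM in control tumors. In culture it was at 24.61, 29.49 and 22.06 TPM in knockdown cells against 26.14, 33.18 and 37.37 TPM in control cells. The 2 highest culture values were those of control cells 2 and 3, but control cells 1 fell within the knockdown range.

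Fut8, the core fucosyltransferase of N-glycans, was the most abundant of the 10 genes in tumors, at 88.29, 100.18 and 93.84 TPM in knockdown tumors against 81.76, 88.14 and 86.47 TPM in control tumors. Every knockdown tumor was above every control tumor, with knockdown tumor 1 and control tumor 2 almost level. In culture they overlapped, at 30.00, 34.69 and 29.02 TPM in knockdown cells and 30.33, 32.68 and 32.66 TPM in control cells. Fut4, which makes Lewis x structures and is known from myeloid cells, was at 5.24, 4.51 and 4.54 TPM in knockdown tumors against 4.67, 5.38 and 5.43 TPM in control tumors. In culture it was at 0.39, 0.48 and 0.44 TPM in knockdown cells against 0.33, 0.29 and 0.30 TPM in control cells, so the culture groups did not overlap, at a level below 1 TPM that was not tested. Fut10 and Fut11, described as protein O-fucosyltransferases, were at 6.59 to 7.90 TPM in knockdown tumors, 6.37 to 8.12 TPM in control tumors, 7.30 to 10.36 TPM in knockdown cells and 7.90 to 9.19 TPM in control cells for Fut10, and between 0.21 and 0.88 TPM in every library for Fut11.

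**Figure D1:**
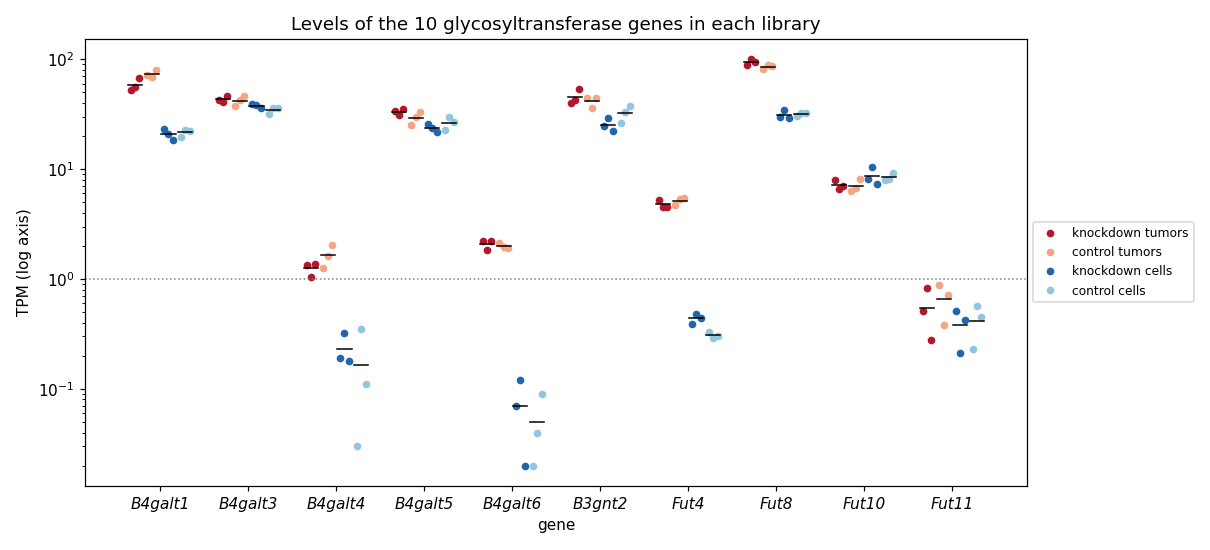
TPM of the 10 genes on a log axis. Points are libraries (3 per group), horizontal lines group means, and the dotted line 1 TPM. Fut4, B4galt4 and B4galt6 lie below the line in culture and above it in tumors, and Fut11 lies below it in all 12 libraries.

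In knockdown tumors the order of mean levels was Fut8 (94.1 ± 5.95 TPM, SD, n = 3), B4galt1 (58.6 ± 7.92), B3gnt2 (45.7 ± 7.44), B4galt3 (43.1 ± 2.82) and B4galt5 (33.4 ± 1.98), then Fut10, Fut4, B4galt6, B4galt4 and Fut11. The neighbours B4galt1 and B3gnt2, and B3gnt2 and B4galt3, overlapped, and the others did not. Control tumors had the same order except that B4galt3 (42.0 ± 4.64 TPM) and B3gnt2 (41.7 ± 4.69 TPM), which overlapped, changed places, and that B4galt6 and B4galt4 overlapped too, with Fut8 at 85.5 ± 3.31 TPM and B4galt1 at 74.0 ± 6.04 TPM. In culture B4galt3 was highest, at 37.9 ± 1.76 TPM in knockdown cells and 34.6 ± 2.48 TPM in control cells, and B4galt1 followed Fut8, B3gnt2 and B4galt5, at 20.9 ± 2.36 TPM in knockdown cells and 21.6 ± 1.59 TPM in control cells. Of the neighbours among the 5 most abundant culture genes, only B4galt3 and Fut8 in knockdown cells, and Fut8 and B4galt5 and then B4galt5 and B4galt1 in control cells, did not overlap.

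The knockdown left 0 of the 10 genes with a called change, in tumors or in culture. B4galt1 came nearest to a call, at 58.6 ± 7.92 TPM in knockdown tumors and 74.0 ± 6.04 TPM in control tumors (SD, n = 3 each). Each gene was compared between knockdown and control with limma, fitted on log2(TPM + 1) over all genes that averaged at least 1 TPM in a group, and called at a Benjamini-Hochberg adjusted p under 0.05. In tumors 9 of the 10 genes were tested (Fut11 was too low) and 0 were called, against 225 of 14915 genes (1.51%). An unadjusted p under 0.05 was found for 1 of the 9, B4galt1, and for 18.7% of all genes. B4galt1 had a log2 change of -0.34 (SE 0.109, 95% interval -0.59 to -0.08, limma adjusted p = 0.175), lower in 3 of 3 knockdown tumors than in any control tumor, as were 14.9% of all genes tested. Over the alternative settings its adjusted p ran from 0.0739 to 0.421 and its log2 change from -0.44 to -0.26. The sum of epithelial and ovarian tumor markers was also lower in every knockdown tumor, averaging 2675 TPM in knockdown and 3318 TPM in control tumors. Most of it was Krt8, Krt18 and Krt19, at 1058, 925 and 649 TPM in knockdown tumors. Each of Krt8, Krt18, Krt19 and Msln was lower in every knockdown tumor, with limma adjusted p from 0.0796 to 0.144. Wt1 was higher in mean (1.82 TPM in knockdown, 1.39 TPM in control tumors) and Cdh1 lower (4.35 and 4.68 TPM), both with overlap. Krt7, Epcam, Pax8 and Muc16 averaged under 1 TPM in tumors. The fibroblast, endothelial and erythroid sums were lower in mean, with overlapping libraries, at 868 TPM in knockdown and 1285 TPM in control tumors for fibroblasts, 48.6 TPM in knockdown and 70.6 TPM in control tumors for endothelium, and 57.3 TPM in knockdown and 95.1 TPM in control tumors for erythroid cells. Most of the fibroblast sum was Col1a1, Col1a2 and Col3a1, at 289, 257 and 229 TPM in knockdown tumors. Of the 8 fibroblast markers 6 had negative changes, with Fap called (limma adjusted p = 0.0148), and Pdgfra and Lum had positive ones. Leukocyte sums were higher in mean (255 TPM in knockdown, 208 TPM in control tumors), as were muscle sums (54.5 and 6.40 TPM), both with overlap. The part of any of these cells in the B4galt1 value was not tested. Fut8 had a log2 change of 0.14 (SE 0.0692, interval -0.03 to 0.30, limma adjusted p = 0.335), and its knockdown libraries were all above the control libraries, as they were for 9.81% of genes tested. Changes of the other 7 genes ran from -0.22 for B4galt4 to 0.19 for B4galt5, with limma adjusted p from 0.403 to 0.927. The median over the 9 genes was 0.04, beside -0.05 over all genes tested.

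For B4galt3, B4galt6 and Fut10 in tumors the intervals ran from -0.19 to 0.27, -0.26 to 0.35 and -0.26 to 0.31 on the log2(TPM + 1) scale, and for B4galt4, the widest, from -0.63 to 0.18. For low genes these bounds depend on the pseudocount: with 0.1 TPM in place of 1 TPM the interval was -0.98 to 0.28 for B4galt4 and -0.36 to 0.49 for B4galt6. St3gal3 itself changed by -1.13 (SE 0.110, limma adjusted p = 0.00954) in the same fit, which is outside the interval of each of the 9 genes.

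In cultured cells 6 of the 10 genes were tested and 0 were called, against 4 of 13492 genes (0.0296%), and 0 of the 6 had an unadjusted p under 0.05, against 3.42% of all genes. B4galt4, B4galt6, Fut4 and Fut11 averaged under 1 TPM in both culture groups. The lowest p was that of B3gnt2, with a log2 change of -0.33 (SE 0.158, 95% interval -0.70 to 0.04, limma adjusted p = 1.00). The log2 change of B4galt3 was 0.13 (interval -0.08 to 0.34), that of B4galt5 -0.14 (interval -0.44 to 0.15) and that of B4galt1 -0.05 (interval -0.31 to 0.22). Fut8 had a log2 change of -0.03 (interval -0.26 to 0.19) and Fut10 one of 0.01 (interval -0.33 to 0.36). Knockdown and control libraries overlapped for all 6, where they did not for 7.71% of genes tested. The median over the 6 genes was -0.04, beside 0.02 over all genes tested. With no filter on low values, Fut4 had a log2 change of 0.14 in culture (SE 0.106, limma adjusted p = 0.925).

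**Figure D2:**
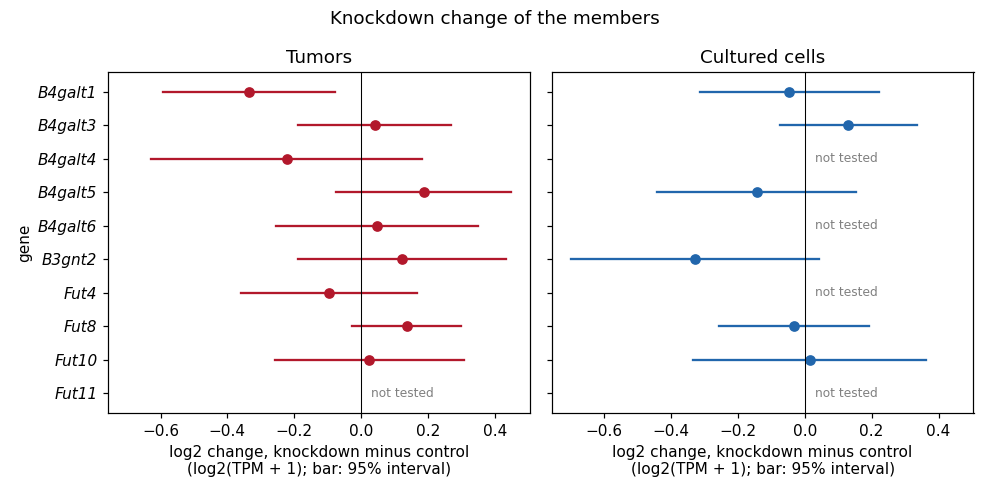
Log2 change of each gene, knockdown minus control, on the log2(TPM + 1) scale, in tumors (left) and cultured cells (right), with 95% intervals from limma as bars. All intervals except that of B4galt1 in tumors include 0, and Fut11 in tumors and 4 genes in culture were not tested.

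Whether the change differed between tumors and culture was tested as an interaction over all 12 libraries. Of the 9 genes tested 0 were called, against 116 of 15381 genes (0.754%), and 0 had an unadjusted p under 0.05, against 11.1% of all genes. Among the 9, B4galt4, B4galt6 and Fut4 averaged under 1 TPM in both culture groups, where the log2(TPM + 1) scale understates changes. Over the settings other than leaving out a library, the difference ran from -0.84 to -0.26 for B4galt4. It ran from -0.51 to -0.15 for Fut4 and from -0.10 to 0.08 for B4galt6. The difference, tumor change minus culture change, was 0.45 for B3gnt2 (SE 0.221, limma adjusted p = 0.488), 0.33 for B4galt5 (SE 0.174, adjusted p = 0.520) and -0.29 for B4galt1 (SE 0.159, adjusted p = 0.534). These are the 3 members with the smallest p, and the interval of each includes 0.

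Because TPM is scaled by length, the genes of a family can be set side by side. The 7 B4galt genes, with B4galt2 and B4galt7 added to the 5 studied here, summed to 176 ± 12.9 TPM in knockdown tumors and 191 ± 16.2 TPM in control tumors, and to 138 ± 7.74 TPM in knockdown cells and 137 ± 13.6 TPM in control cells (SD, n = 3 each). B4galt1 made up 30.9, 33.4 and 35.5% of the sum in knockdown tumors, against 40.9, 36.8 and 38.6% in control tumors, and 15.1 ± 0.886% in knockdown cells against 15.8 ± 0.573% in control cells. B4galt3 made up 25.0, 24.4 and 24.2% in knockdown tumors against 21.0, 22.6 and 22.3% in control tumors, and 26.9, 28.1 and 27.5% in knockdown cells against 26.0, 24.4 and 25.7% in control cells. B4galt5 made up 20.0, 18.7 and 18.4% in knockdown tumors against 14.2, 15.9 and 16.0% in control tumors, and 17.7, 17.2 and 16.5% in knockdown cells against 18.5, 20.1 and 19.2% in control cells. In tumors the knockdown libraries lay below the control libraries for the share of B4galt1 and above them for B4galt3 and B4galt5, and in culture above them for B4galt3 and below them for B4galt5. These are not separate results: shares of a sum are bound to each other, and a lower share of B4galt1 raises the sum of the others. It need not raise each of them. In tumors the mean shares of B4galt3, B4galt5 and B4galt6 were higher with the knockdown. Those of B4galt2 (9.04% in knockdown, 9.78% in control tumors), B4galt4 (0.713 and 0.854%) and B4galt7 (12.24 and 12.26%) were not. The levels of B4galt3 and B4galt5 overlapped in both settings, and how often such shares fail to overlap by chance was not tested. B4galt4 made up at most 0.976% and B4galt6 at most 1.31% of the sum in any library.

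Among the 8 Fut genes summed (Fut1, Fut2, Fut4, Fut7, Fut8, Fut9, Fut10 and Fut11), Fut8 held most of the transcripts. It made up 82.8 ± 1.97% in knockdown tumors and 82.8 ± 2.02% in control tumors, and 72.7 ± 2.03% in knockdown cells and 73.3 ± 1.60% in control cells. Fut10 made up 6.36 ± 0.849% in knockdown tumors and 6.83 ± 0.635% in control tumors, and 19.8 ± 1.16% in knockdown cells and 19.3 ± 0.987% in control cells. Fut4 made up 4.21 ± 0.519% in knockdown tumors and 4.99 ± 0.156% in control tumors, and 1.02 ± 0.0987% in knockdown cells and 0.706 ± 0.0671% in control cells. The family sum was 114 ± 5.31 TPM in knockdown tumors and 103 ± 5.51 TPM in control tumors, and 43.1 ± 5.40 TPM in knockdown cells and 43.5 ± 1.39 TPM in control cells.

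**Figure D3:**
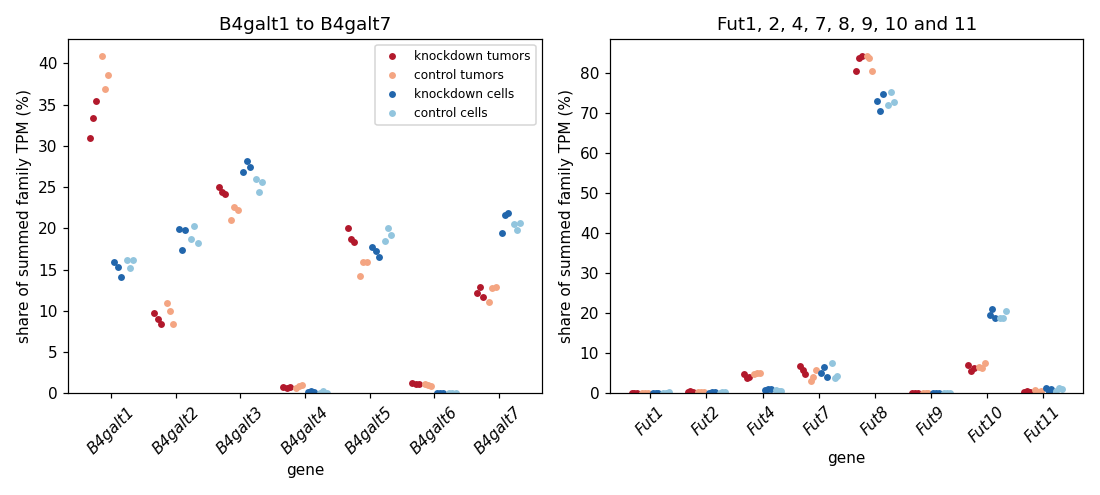
Share of each gene in the summed TPM of the 7 B4galt genes (left) and 8 Fut genes (right). Points are libraries, 3 per group. B4galt1 holds 30.9 to 40.9% of its family in tumors and 14.1 to 16.2% in culture, and Fut8 70.5 to 84.2% of its family throughout.

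Levels were also set side by side between tumors and culture. Of the genes above 1 TPM in both settings, Fut8 and B4galt1 were at least 2.68 times as high in tumors of both lines, B4galt3 was close to its culture level, and Fut10 was slightly lower in mean. Cell and tumor tables list different genes and were normalized separately, so these levels are a description with no test. Of the 6 genes that averaged at least 1 TPM in both settings, 5 had all knockdown tumors above all knockdown cells, as had 33.3% of such genes, and 3 had all control tumors above all control cells, as had 37.8% of such genes. B4galt4, B4galt6 and Fut4 reached 1 TPM in tumors alone and are left out of these counts. Their ratios rest on culture means under 0.5 TPM: Fut4 was 10.9 times as high in knockdown tumors as in knockdown cells and 16.8 times in control tumors as in control cells, B4galt4 had ratios of 5.45 (knockdown) and 10.1 (control), and B4galt6 of 29.9 (knockdown) and 39.8 (control). The tumor to culture ratio of Fut8 was 3.01 in the knockdown line and 2.68 in the control line, and that of B4galt1 2.80 in the knockdown line and 3.43 in the control line. B3gnt2 had ratios of 1.80 (knockdown) and 1.29 (control), B4galt5 of 1.41 (knockdown) and 1.11 (control) and B4galt3 of 1.14 (knockdown) and 1.21 (control). The mean of Fut10 in tumors was 0.838 times its culture mean in the knockdown line and 0.840 times in the control line, with overlapping libraries. On the log2(TPM + 1) scale the tumor minus culture difference of Fut8 was above that of 88.9% of genes in the knockdown line and 87.5% in the control line. Leukocyte, fibroblast and endothelial markers, none of which averaged 1 TPM in culture, were present in tumors alongside these higher levels, and their part in them was not tested.

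**Figure D4:**
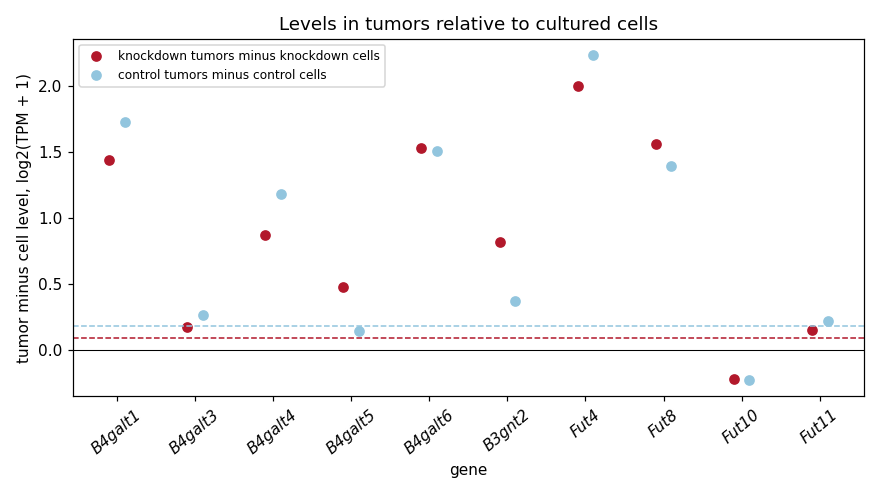
Tumor minus culture level of each gene on the log2(TPM + 1) scale, for the knockdown and the control line. Dashed lines are the medians of all genes that averaged at least 1 TPM in either setting (0.09 in the knockdown line and 0.19 in the control line). Fut4 is highest at 2.00 and 2.23, and Fut10 lies below 0.

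The wider pathway was read from 9 lists of 61 genes that act before, beside or after these enzymes. In tumors 49 were tested and 0 were called by limma. An unadjusted p under 0.05 was found for 9 of them (18.4%, beside 18.7% of all genes). All 9 had negative changes, as had 59.7% of all genes with such a p. Knockdown tumors were all below control tumors for 12 of the 49 and all above for 2, beside 14.9% and 9.81% of all genes, and the median change was -0.06, beside -0.05. In culture 43 were tested, 0 were called and 1 had an unadjusted p under 0.05.

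Among other galactosyltransferases, B4galt2 was at 15.8 TPM in knockdown and 18.5 TPM in control tumors (log2 change -0.21, limma adjusted p = 0.221), and B4galt7, which builds the linker of proteoglycans, at 21.5 TPM in knockdown and 23.5 TPM in control tumors (log2 change -0.11, adjusted p = 0.616). C1galt1c1, the chaperone of the core O-glycan galactosyltransferase, had a log2 change of 0.18 (adjusted p = 0.466). In culture both B4galt2, at 26.3 TPM in knockdown and 26.1 TPM in control cells, and B4galt7, at 28.9 TPM in knockdown and 27.8 TPM in control cells, were above B4galt1. B3gnt3 was the most abundant B3gnt gene, at 77.0 TPM in knockdown and 83.9 TPM in control tumors (log2 change -0.12, limma adjusted p = 0.369). B4gat1, which primes the glycan of dystroglycan, had a log2 change of -0.16 (adjusted p = 0.297). B3gnt7 was at 4.98 TPM in knockdown and 4.29 TPM in control tumors (log2 change 0.17, adjusted p = 0.565) and listed at 0 in culture.

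Among other fucosyltransferases, Fut7, which completes the selectin ligand sialyl Lewis x after a sialyltransferase has acted, was at 7.40, 6.93 and 5.31 TPM in knockdown tumors and 3.08, 4.42 and 6.22 TPM in control tumors. Its log2 change was 0.47 (SE 0.221, limma adjusted p = 0.311), and the groups overlapped. In culture it was at 2.11, 3.28 and 1.58 TPM in knockdown cells and 3.24, 1.63 and 1.96 TPM in control cells. Pofut1 and Pofut2, which fucosylate folded protein repeats, had log2 changes of -0.05 and -0.24 in tumors (limma adjusted p = 0.791 and 0.198). Of the genes of fucose supply, Fpgt had a log2 change of -0.19 in tumors, Slc35c2 of -0.075 and Gfus, which makes GDP-fucose, of -0.078, with limma adjusted p from 0.395 to 0.676.

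N-glycan branching genes, which decide how many antennae B4galt enzymes can extend, included Mgat3, the bisecting enzyme, at 53.7 TPM in knockdown and 65.3 TPM in control tumors (log2 change -0.28, limma adjusted p = 0.127). Mgat4b had a log2 change of -0.17 (adjusted p = 0.283) and Mgat5, whose antenna is the preferred site of polylactosamine, one of -0.18 (adjusted p = 0.368). Of the branching genes of O-glycans and I antigens, Gcnt1 had a log2 change of -0.31 (limma adjusted p = 0.218), Gcnt2 of 0.13 (adjusted p = 0.358) and Gcnt4 of 0.07 (adjusted p = 0.704). In the list for the supply of UDP-galactose, the galactokinase gene Galk1 had a log2 change of 0.13 in tumors (limma adjusted p = 0.454). Galk2, listed there but encoding an N-acetylgalactosamine kinase, had one of -0.10 (adjusted p = 0.471). Galk2 was the pathway gene with an unadjusted p under 0.05 in culture, at 29.9 TPM in knockdown and 38.2 TPM in control cells (log2 change -0.34, limma adjusted p = 0.876). Of the enzymes that remove galactose or fucose, Glb1 had a log2 change of -0.23 in tumors (limma adjusted p = 0.221), Fuca1 of -0.35 (adjusted p = 0.461) and Fuca2 of 0.12 (adjusted p = 0.529).

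The smallest adjusted p among the pathway genes belonged to sialyltransferases that compete for or share galactose acceptors. St6gal1, which adds sialic acid in another linkage to the same N-acetyllactosamine, was at 11.9 TPM in knockdown and 16.2 TPM in control tumors (log2 change -0.41, SE 0.0922, limma adjusted p = 0.0855). St3gal5, the ganglioside synthase that uses the product of B4galt5 and B4galt6, was at 61.5 TPM in knockdown and 80.6 TPM in control tumors (log2 change -0.38, SE 0.0875, adjusted p = 0.0894). Of 15 alternatives it was called only when all 4 groups shared 1 fit (limma adjusted p = 0.0349). That fit called 599 genes in tumors in place of 225. St3gal1 had a log2 change of -0.27 (adjusted p = 0.179). In culture the log2 change was -0.11 for St6gal1, -0.03 for St3gal5 and -0.13 for St3gal1, with a limma adjusted p of 1.00 for each.

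**Figure D5:**
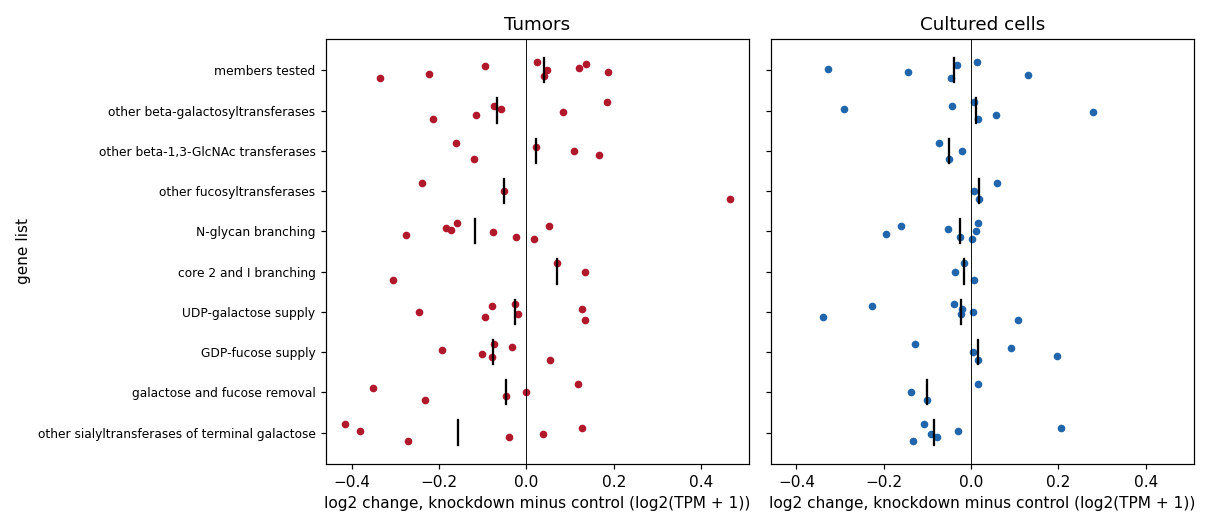
Log2 change, knockdown minus control, of each tested gene of the set and of the 9 pathway lists, in tumors (left) and culture (right). Each point is a gene and black lines are list medians. No point passed the threshold, and the list of other sialyltransferases has the lowest median in tumors (-0.16).

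For B4galt1, B3gnt2 and Fut8, the genes with the most similar pattern over the 12 libraries were taken as those with the smallest root mean square difference of centred log2(TPM + 1), among 9904 named genes that averaged at least 2 TPM in every group. For B4galt1 these were Zfp36l1, with a difference of 0.068, Fam78b with 0.097 and Adgre5 with 0.099, where the median over all genes was 0.80. Zfp36l1, which encodes an RNA-binding protein, was at 41.5 TPM in knockdown and 50.7 TPM in control tumors, and 13.7 TPM in knockdown and 14.4 TPM in control cells. For Fut8 they were Nck2, Metrnl and Itm2b, with differences of 0.070 to 0.096, beside a median of 0.75 over all genes. For B3gnt2 they were Mfsd14b, Acsl4 and Gpalpp1, with differences of 0.098 to 0.105, beside a lower median of 0.40. All 9 averaged higher in tumors than in culture in both lines. The 12 libraries share this contrast of tissue, and nothing about shared control follows from it.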

How the data were processed

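RNA was sequenced in 12 libraries, and groups follow the sample titles. Per the file headers, the authors deposited 1 table per sample with gene identifier, name, description, length and TPM. The TPM columns have the same sum in every library to rounding. Tools listed by the submitters' processing notes are fastp, HISAT and RSEM, and the build is GRCm39; versions, roles and settings are not stated there, nor is the use of strand. RSEM divides ambiguous reads between similar transcripts. RefSeq genes that overlap a member and could be matched by name averaged at most 0.783 TPM in any group. Depth is unknown.

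Values were fitted as log2(TPM + 1) with limma 3.58.1 in R 4.3.3 (trended, robust empirical Bayes). A gene was tested where the mean of a group reached 1 TPM. Each tissue was fitted alone on 6 libraries, and the difference between tissues on all 12, over 55416 shared Ensembl identifiers. Such fold changes understate changes of low genes. Intervals are 95% intervals from limma. Calls were made at an adjusted p under 0.05 (Benjamini-Hochberg, two-sided, all genes of the fit). Shares and tumor to culture ratios carry no test: a permutation of 3 against 3 libraries cannot go below a p of 0.1. The members and lists were chosen with earlier results of these data known. Named genes are the members, St3gal3, the 3 genes per pathway list with the smallest p in tumors, and the 3 nearest patterns; a gene that the rule names is not reported here. Alternatives were a pseudocount of 0.1, no or a stricter filter, a replicate block, 2 other scalings, no trend, 1 fit over all groups, and leaving out libraries. Plots were made in matplotlib 3.10.9 (Python 3.11.15).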

Additional observations from a re-analysis of the deposited data

Results flagged for a closer look

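St3gal3 fell less with the knockdown in tumors than in culture: the interaction was 1.19 in log2 units (limma adjusted p = 0.0164). Over 20 alternatives it ran from 0.88 to 1.62, and the call was lost in 4: with the replicate block (adjusted p = 0.151, log2 1.19), with quantile normalization (0.0612, log2 0.88), without control cells 2 (0.0530, log2 1.14) and without knockdown tumors 1 and 3 (0.0980, log2 1.11).

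The share of B4galt5 in the summed TPM of the B4galt genes moved in opposite directions, with no overlap between knockdown and control in either setting: knockdown minus control was 3.68 percentage points in tumors and -2.11 percentage points in culture. The share of Fut4 in the summed TPM of the Fut genes did the reverse, at -0.782 percentage points in tumors and 0.312 percentage points in culture. The difference between settings was not tested for either share, nor how often shares fail to overlap by chance, and both were picked out of the shares of 9 genes. Shares are bound to each other: that of B4galt1 was lower in every knockdown tumor, which raises the sum of the other B4galt shares. It need not raise each of them. The level of B4galt5 itself overlapped between knockdown and control in both settings and had no call for that difference (limma adjusted p = 0.520), and Fut4 was under 0.5 TPM in every culture library.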

How the results depend on the processing

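In each of 49 alternative fits 0 members were called, and each of 399 adjusted p-values of a member stayed above the threshold. The sign changed in 30 of these, in 10 of 24 member results, all with an absolute log2 value of at most 0.11. Without knockdown tumors 1 and 3, which had the most muscle transcripts, knockdown tumor 2 stood alone and was assumed to vary like the other groups; it and control tumor 2 also carried some. Tumor changes in that fit were -0.0418 for B4galt3, -0.0686 for B4galt6 and -0.0823 for Fut10, and differences between tissues -0.10 for B4galt6 and -0.10 for Fut10. Median-of-ratios scaling gave -0.0155 for Fut10 in culture and 0.0332 for the difference of B4galt3. Quantile normalization gave -0.0104 for Fut10 in culture, and a pseudocount of 0.1 gave -0.10 for the difference of B4galt6. Leaving out 1 library each, culture changes ran from -0.12 to 0.0353 for B4galt1, -0.11 to 0.0171 for Fut8 and -0.11 to 0.11 for Fut10. Tumor changes ran from -0.0412 to 0.12 for B4galt3, -0.0381 to 0.12 for Fut10 and -0.0052 to 0.20 for B3gnt2, and differences from -0.0134 to 0.0785 for B4galt6 and -0.0875 to 0.14 for Fut10. With all 4 groups in 1 fit, 1 pathway gene (St3gal5) was called in tumors. The cause was not tested.

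Same-numbered libraries did not deviate together (correlation of deviations from -0.16 to 0.05 across genes, beside -0.14 to 0.15 for libraries with different numbers). With 3 libraries per group this check cannot exclude a shared animal, culture or day, which the labels do not give. With the replicate block 0 members were called, and the count of all genes called was 2 in tumors in place of 225, 4 in culture in place of 4, and 0 for the difference in place of 116. That count also ran from 38 (without knockdown tumor 1) to 229 in tumors, with 65 without knockdown tumor 2, 103 without control tumor 2 and 131 without control tumor 3, from 7 to 15 over all 6 omissions in culture and from 67 to 164 for the difference when a library was left out, and from 82 with no filter to 599 with 1 fit over all groups in tumors. The St3gal3 call in tumors was lost with the block (adjusted p = 0.0768) and without knockdown tumors 1 and 3 (0.0531), and its difference with the block (0.151), with quantile normalization (0.0612), without control cells 2 (0.0530) and without knockdown tumors 1 and 3 (0.0980), at log2 values of 0.88 to 1.19 beside 1.19. Depth is unknown, so values under 1 TPM, such as those of Fut11 in all groups, cannot be given an error from counting.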
